A study of Bos taurus with 9 samples.

Results

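The 10 genes described here encode the chaperones and proteases that fold and degrade proteins inside mitochondria and that serve as the usual readout of the mitochondrial unfolded protein response. They were taken by symbol, as *HSPD1*, *HSPE1*, *HSPA9*, *DNAJA3*, *GRPEL1*, *TRAP1*, *LONP1*, *CLPP*, *CLPX* and *HTRA2*, and all 10 were found among the 28786 genes of the count table. The rule used the symbols alone, but the list was chosen with earlier results of these data known. Of these genes, 6 serve in folding and 4 encode proteases or a subunit of one. The samples were liver biopsies of lactating Holstein dairy cows kept under heat stress (HS), at thermoneutrality with feed restricted to the intake of the HS cows (pair-fed, PF), or at thermoneutrality (TN). Each group held 3 cows, each cow gave 1 library of polyA RNA, and the labels state no age. The cows were drawn at random from a larger trial. The PF group separates heat from the lower feed intake that comes with it, so HS vs. PF compares heat at a matched intake, PF vs. TN compares intake without heat, and HS vs. TN holds both.

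Nearly all mitochondrial proteins are encoded in the nucleus, made in the cytosol and imported as unfolded chains. In the matrix, HSPA9 (mortalin, the mitochondrial Hsp70) pulls the chain in and holds it, with DNAJA3 as its J-domain partner and GRPEL1 as the factor that exchanges its nucleotide. The chain can then pass to the barrel formed by HSPD1 (Hsp60) and closed by its lid HSPE1 (Hsp10). TRAP1 is the Hsp90 of mitochondria. LONP1 degrades misfolded and oxidised matrix proteins, CLPX unfolds substrates for the peptidase CLPP, and HTRA2 is a serine protease of the intermembrane space that promotes apoptosis when released. Damage to matrix proteins is known to raise the transcription of many of these genes in mammalian cells. The liver is rich in mitochondria, which carry much of its gluconeogenesis, urea synthesis and fatty acid oxidation.

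Expression is given as CPM, the count of a gene scaled to library size, cow by cow in the order of the replicate numbers 1, 2 and 3, and a log2 fold change is the difference between 2 groups in the edgeR fit, with its standard error (SE). A gene was called where its FDR, the p-value adjusted over all genes tested, was under 0.1 and its fold change was over 1.5. The libraries held 16874444 to 22557047 counts, and the members had between 354 and 5588 counts in a library. All 10 members passed the filter on low counts in each comparison. The 8 hepatocyte markers, *ALB* and *TF* among them, had counts in every cow, with a summed level of 59965 to 129091 CPM in HS, 87156 to 119708 in PF and 17288 to 78909.5 in TN. TN replicate 1 stood apart with the lowest sum, and HS replicate 3 had the highest. In this sum each PF cow was above each TN cow. *ALB* was the largest part of the sum in every cow. TN replicate 1 was the lowest cow in 6 of the 8 markers, the exceptions being *APOA1* and *APOB*. The markers of macrophages summed to 838 to 1368 CPM in HS, 542 to 756 in PF and 564 to 1201 in TN, so that each HS cow was above each PF cow. The 3 haemoglobin genes, markers of red cells, summed to 0.336 to 1.29 CPM in HS, 0 to 2.29 in PF and 3.21 to 22.4 in TN, nearly all of it *HBB*. The 4 markers each of bile duct, endothelial, stellate and white blood cells had summed levels that overlapped between the groups. The part of these cell types in the results was not tested. In bulk tissue, fewer cells of a type and less RNA per cell cannot be told apart. The mitochondrial genome's own 13 protein-coding genes took 3.84 to 5.68% of counts in HS, 6.90 to 7.79% in PF and 13.6 to 22.2% in TN.

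The same 2 cows were at the ends of the range for most members. TN replicate 1 was the lowest of the 9 cows in 8 of the 10 members and the highest in *TRAP1*. HS replicate 3 was the highest of the 9 cows in 6 members and the highest HS cow in 9. Several values below are therefore also given without these cows. The group means were in the order HS, PF, TN for 6 members (*HSPD1*, *HSPE1*, *DNAJA3*, *GRPEL1*, *LONP1* and *CLPP*) and in the order PF, HS, TN for *HSPA9* and *CLPX*. TN had the highest mean of *TRAP1* and *HTRA2*.

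**Figure D1:**
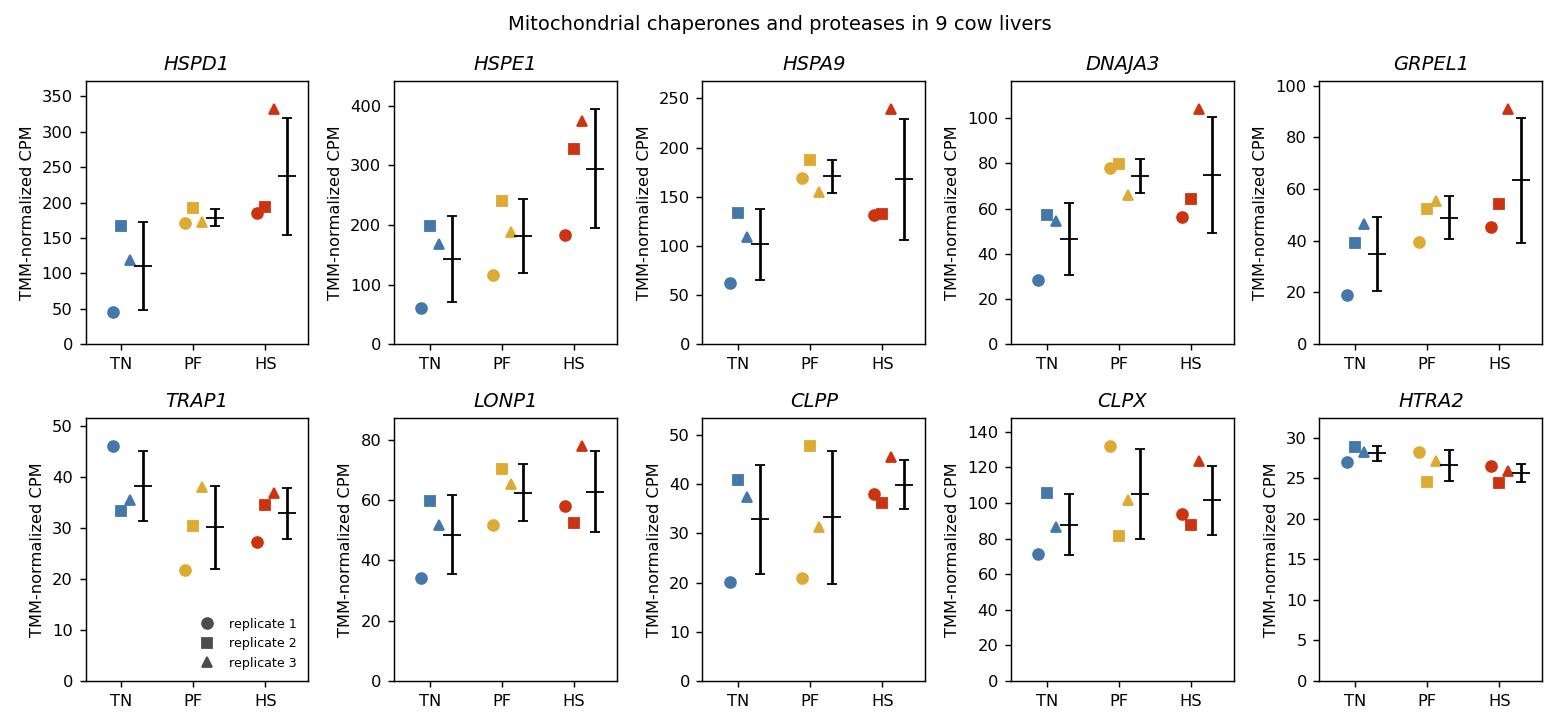
Expression of the 10 members in CPM on linear axes from 0, with a point for each cow of the HS, PF and TN groups and a bar at the mean of the 3 cows. TN replicate 1 is the lowest point in 8 of the 10 panels, and HS replicate 3 is the highest in 6.

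In HS vs. TN, none of the 10 members was called, and the folding members had the larger differences. The chaperonin genes *HSPD1* and *HSPE1* had fold changes of 2.13 and 2.05, the Hsp70 machine of *HSPA9*, *DNAJA3* and *GRPEL1* had fold changes of 1.59 to 1.81, and *TRAP1* and the 4 protease genes stayed within 0.845 to 1.28. The median log2 fold change was 0.78 over the folding members and 0.24 over the proteases, beside -0.0082 over all genes tested. Without TN replicate 1 these medians were 0.51 and 0.053, without HS replicate 3 they were 0.43 and 0.10, and without both cows 0.16 and -0.085.

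*HSPD1*, the barrel subunit, was at 185, 194 and 332 CPM in HS and at 44.9, 168 and 119.6 in TN, with means of 237 ± 82.2 and 111 ± 61.8 (SD, n = 3). Each HS cow was above each TN cow, although HS replicate 1 and TN replicate 2 were close. Its log2 fold change was 1.09 (SE 0.46, FDR 0.512) in edgeR. The lid gene *HSPE1* was at 183, 327 and 374 CPM in HS and at 61.6, 199 and 167 in TN. The groups overlapped here, since the lowest HS cow was below TN replicate 2, and the log2 fold change was 1.04 (SE 0.45, FDR 0.522) in edgeR. *HSPD1* was the only member that was higher in every HS cow than in every TN cow, against 8.37% of all genes tested.

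Of the Hsp70 machine, the nucleotide exchange factor *GRPEL1* was at 45.3, 54.1 and 90.8 CPM in HS and at 18.9, 39.0 and 46.6 in TN. Only TN replicate 3 reached the range of the HS cows, and the log2 fold change was 0.85 (SE 0.36, FDR 0.518) in edgeR. *HSPA9*, the motor of matrix import, was at 131, 133 and 239 CPM in HS and at 62.0, 133 and 109 in TN. Its J-domain partner *DNAJA3* was at 56.4, 64.0 and 104 and at 28.2, 57.3 and 54.5 CPM. In both genes HS replicates 1 and 2 lay close to TN replicates 2 and 3, and the 2 cows that stood apart made up most of the difference, with log2 fold changes of 0.71 (SE 0.36) and 0.67 (SE 0.33). *TRAP1*, the mitochondrial Hsp90, was at 27.2, 34.5 and 36.9 CPM in HS and at 46.1, 33.4 and 35.4 in TN, a log2 fold change of -0.24 (SE 0.23). Its highest cow was TN replicate 1, where the other folding members were lowest. *DNASE1*, which overlaps *TRAP1* in the later assembly ARS-UCD2.0, was also highest in that cow, at 40.0 CPM beside 13.2 to 30.4 in the other 8 cows, and its part in the *TRAP1* counts was not tested.

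The 4 protease genes differed little. *LONP1* was at 57.9, 52.3 and 77.9 CPM in HS and at 34.1, 59.5 and 51.8 in TN, a log2 fold change of 0.36 (SE 0.27). *RPL36*, which overlaps *LONP1* in ARS-UCD2.0, was at 184 to 259 CPM in HS, 109 to 295 in PF and 151 to 212 in TN. Its part in the *LONP1* counts was not tested. The subunits of the ClpXP protease were alike in that their groups overlapped, with log2 fold changes of 0.27 (SE 0.27) for the peptidase *CLPP* and 0.20 (SE 0.26) for the unfoldase *CLPX*. *HTRA2* was the steadiest member, at 26.5, 24.4 and 25.9 CPM in HS and at 27.0, 28.8 and 28.3 in TN. All 3 HS cows were below all 3 TN cows, which held for 7.7% of all genes tested, but the log2 fold change was only -0.15 (SE 0.18).

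**Figure D2:**
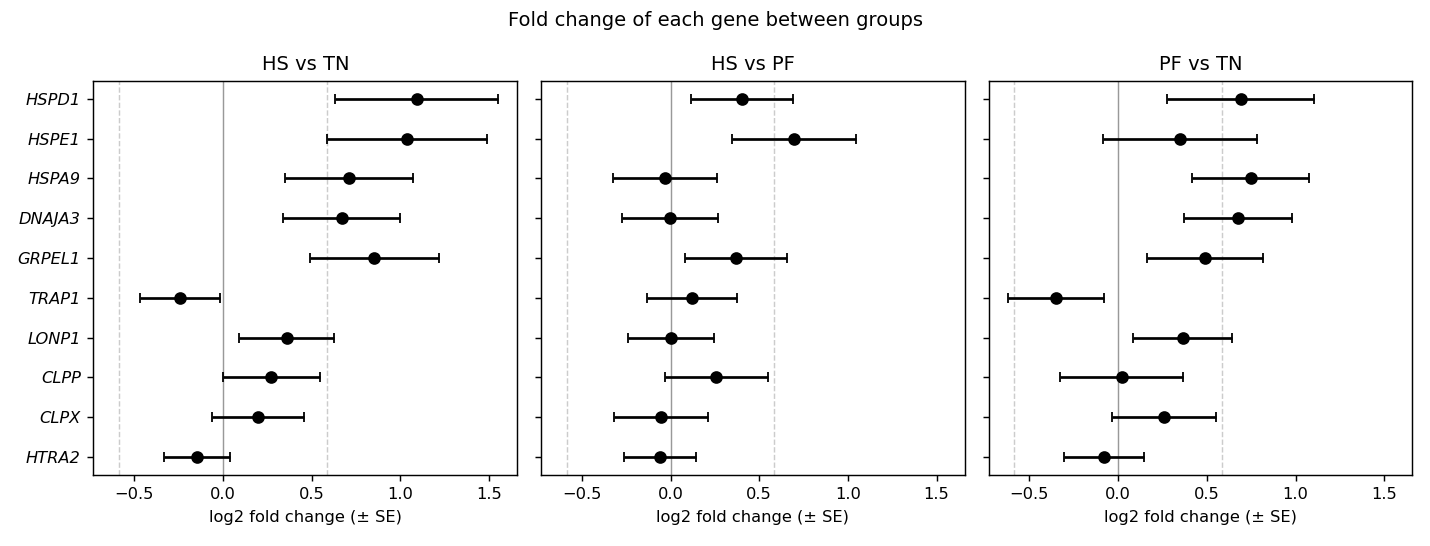
Log2 fold change of each member in HS vs. TN, HS vs. PF and PF vs. TN from the edgeR fit of each pair of groups, with bars of 1 SE. In HS vs. TN the values run from -0.24 for TRAP1 to 1.09 for HSPD1, and no member was called in any comparison.

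By count, 8 of the 10 members had a higher mean in HS than in TN (background over all genes tested, 49.3%), and 5 were past a fold change of 1.5 (9.89% of all genes). The number called was 0 in edgeR (background 0.0892%) and 0 in DESeq2 (background 1.32%). At an unadjusted p under 0.05, edgeR passed 3 members, *HSPD1*, *HSPE1* and *GRPEL1*, all higher in HS (background 4.13% higher and 9.36% in both directions), and DESeq2 passed 5 (background 7.91%). The FDR of these 3 genes was 0.512 to 0.522 in edgeR and 0.226 to 0.366 in DESeq2, so that the threshold was missed with both tools, and it ran from 0.226 to 0.920 over all the alternatives. A missed threshold does not show that the groups were equal.

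Without TN replicate 1, no member passed an unadjusted p under 0.05 in edgeR, and the median over the members went from 0.51 to 0.29. The log2 fold change of *HSPD1* was then 0.72, that of *HSPE1* 0.68 and that of *GRPEL1* 0.56. Without TN replicate 3 the number passing was 1. Without HS replicate 3 it was 0 and the median 0.27. Without both TN replicate 1 and HS replicate 3, a choice made after their values were seen, the median was 0.042 with 5 members higher and 5 lower in HS, and no member was past a fold change of 1.5. *HSPE1* and *HSPD1* then had the largest log2 fold changes, 0.47 and 0.40, while *HSPA9* and *DNAJA3* were at 0.11 and 0.10. TN replicate 1 and HS replicate 3 also had the lowest and the highest sum of hepatocyte markers, and the part of cell content in the members' values was not tested. With the mitochondrial genome left out of the library sizes the median was 0.51.

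**Figure D3:**
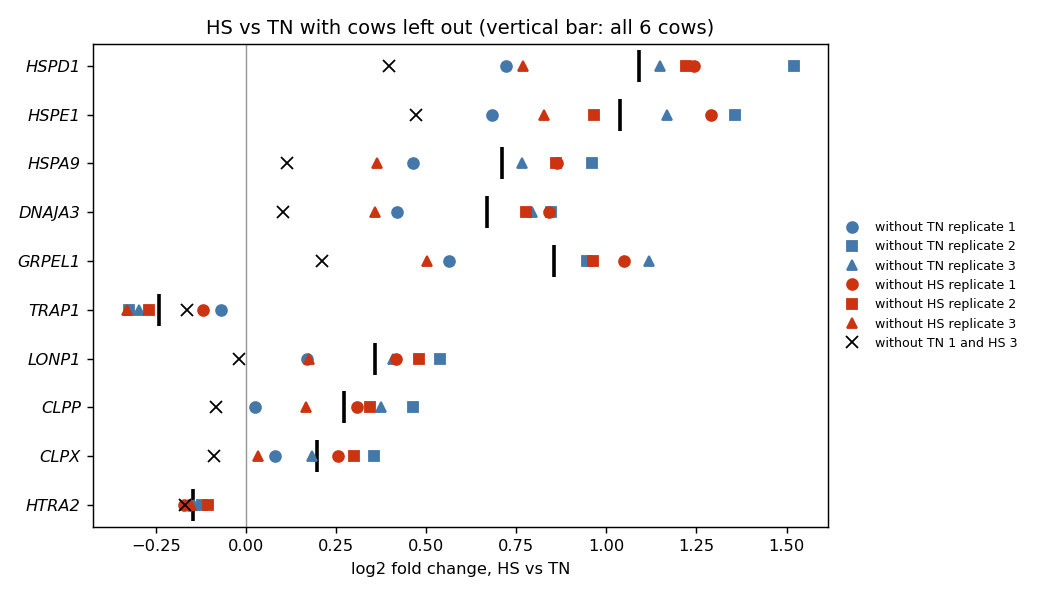
Log2 fold change of each member in HS vs. TN with all 6 cows, with each cow left out in turn, and without TN replicate 1 and HS replicate 3 together. For HSPD1 the value is 1.09 with all cows and 0.40 without both, and LONP1, CLPP and CLPX go from above to below 0.

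In HS vs. PF, where intake was matched, the median over all members was close to 0, while that of the folding members was above it. None was called in edgeR (background 0.0276%) or in DESeq2 (background 0.596%), none passed an unadjusted p under 0.05 in edgeR (background 5.32%), and only *HSPE1* did in DESeq2 (background 4.63%). The median log2 fold change was 0.061, beside 0.0069 over all genes. By the sign of the edgeR fit, 6 members were higher (background 50.9%) and 4 lower in HS. No member had groups that did not overlap (background 5.95% higher and 4.58% lower). Without HS replicate 3 the median was -0.021, with 5 members higher and 5 lower. The median was 0.24 over the folding members and -0.026 over the proteases. With 1 cow left out, that of the folding members ran from 0.027 (without HS replicate 3) to 0.39 (without HS replicate 1). *HSPE1* had the largest difference. It was at 116, 239.9 and 188 CPM in PF, with the lowest HS cow below PF replicates 2 and 3, and its log2 fold change was 0.69 (SE 0.35, FDR 0.949) in edgeR. *HSPD1* was at 171, 192 and 172 CPM in PF, a narrow range that held HS replicate 1 and lay just under HS replicate 2, and its log2 fold change was 0.40 (SE 0.29). *GRPEL1*, at 39.4, 52.1 and 55.2 CPM in PF, had a log2 fold change of 0.37 (SE 0.29). Without HS replicate 3 these 3 genes were at 0.49 for *HSPE1*, 0.086 for *HSPD1* and 0.021 for *GRPEL1*. With 1 cow left out, 1 member passed an unadjusted p under 0.05 without HS replicate 1 and 2 did without PF replicate 2.

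The rest of the Hsp70 machine had nearly the same mean under heat and under restricted feeding. *HSPA9* was at 169, 188 and 155 CPM in PF, above HS replicates 1 and 2 and below HS replicate 3, and its log2 fold change was -0.031 (SE 0.29). *DNAJA3* was at 78.1, 79.7 and 66 CPM in PF, with a log2 fold change of -0.0023 (SE 0.27), although its mean CPM was 74.8 in HS and 74.6 in PF. Both SEs are large beside these differences, so a modest difference in either direction was not detectable. *LONP1* was at 51.8, 70.3 and 65.3 CPM in PF and *TRAP1* at 21.8, 30.5 and 38.1, with log2 fold changes of 0.0010 (SE 0.24) and 0.12 (SE 0.25). *CLPP* had the widest scatter for its mean of the members in PF. It ranged from 21.0 to 47.8 CPM there, and *CLPX* ranged from 81.6 to 132, with PF replicate 1 lowest in the former and highest in the latter. *HTRA2* was at 28.2, 24.5 and 27.1 CPM in PF.

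In PF vs. TN, *HSPA9*, *HSPD1* and *DNAJA3* had the largest fold changes of the members, 1.68, 1.61 and 1.60. This comparison shares its TN cows with HS vs. TN, so they are not independent and TN replicate 1 bears on both. The sum of hepatocyte markers was higher in each PF cow (87156 to 119708 CPM) than in each TN cow (17288 to 78909.5). The part of cell content in the members' values was not tested. Each PF cow was above each TN cow in 3 members, *HSPA9*, *DNAJA3* and *HSPD1* (background 6.81%), and 3 members were past a fold change of 1.5 (9.33% of all genes). None was called in edgeR (background 0%) or DESeq2 (background 0.449%). *HSPA9* and *DNAJA3* passed an unadjusted p under 0.05 in edgeR (background 2.99% higher and 6.88% in both directions), and 2 members did in DESeq2 (background 6.41%). Their log2 fold changes were 0.75 (SE 0.33, FDR 0.708) and 0.68 (SE 0.30, FDR 0.708) in edgeR. The chaperonin genes were at 0.69 (SE 0.42) for *HSPD1* and 0.35 (SE 0.43) for *HSPE1*. *GRPEL1* was at 0.49 (SE 0.33), *LONP1* at 0.36 (SE 0.28) and *TRAP1* at -0.35 (SE 0.27), and *CLPX*, *CLPP* and *HTRA2* were at 0.26, 0.021 and -0.079.

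In this comparison 8 of the 10 members had a higher mean in PF (background 48.8%). The median over the members was 0.36, beside -0.014 over all genes, and 0.15 without TN replicate 1. No member then passed an unadjusted p under 0.05 in edgeR, nor did any without PF replicate 1, without PF replicate 2 or without TN replicate 3, while 1 did without PF replicate 3 and 3 did without TN replicate 2. Without TN replicate 1, *HSPA9* and *DNAJA3* had log2 fold changes of 0.50 and 0.42, *HSPD1* was at 0.32, and *HSPE1* went from 0.35 to -0.0056. Set side by side, *HSPA9* and *DNAJA3* had log2 fold changes over TN of 0.71 and 0.67 in HS and of 0.75 and 0.68 in PF, whereas *HSPE1* had 1.04 in HS and 0.35 in PF.

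Ratios within a library need no scaling factor and set partners against each other directly. They are ratios of raw counts, so only the comparison of a ratio between cows carries meaning, not its distance from 1. Of the 15 tests, 5 ratios in 3 comparisons, 3 reached an exact two-sided permutation p of 0.1, the smallest that 3 cows against 3 can give, and the Benjamini-Hochberg adjusted values were 0.5 to 0.8. The lid to barrel ratio, *HSPE1* to *HSPD1*, was 0.989 to 1.68 in HS, 0.679 to 1.25 in PF and 1.18 to 1.40 in TN, so that the groups overlapped. The ratio of *CLPX* to *CLPP* was 2.42 to 2.71 in HS and 2.31 to 3.53 in TN, and its range in PF of 1.71 to 6.31 had PF replicate 1 at its top.

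The other 3 ratios set a mitochondrial chaperone against its counterpart in the cytosol. *DNAJA3* to *DNAJA1*, the J-domain partners of the mitochondrial and the cytosolic Hsp70, was 0.823 to 0.950 in HS, below each TN cow at 1.27 to 1.5, a log2 difference of -0.71 (exact permutation p = 0.1, adjusted 0.5). *TRAP1* to *HSP90AA1*, the heat-inducible cytosolic Hsp90, was 0.0443 to 0.0757 in HS and 0.106 to 0.309 in TN, again with no overlap and with a log2 difference of -1.63 (exact permutation p = 0.1, adjusted 0.5). In PF these ratios were 0.780 to 1.36 and 0.0529 to 0.136, overlapping both other groups. The log2 differences were -0.38 and -0.57 in HS vs. PF (exact permutation p = 0.4 and 0.3). They were -0.33 and -1.06 in PF vs. TN (exact permutation p = 0.3 for each). *DNAJA1* and *HSP90AA1* had larger log2 fold changes in HS vs. TN than the mitochondrial members, at 1.34 (SE 0.33, FDR 0.315) and 1.37 (SE 0.39, FDR 0.392) in edgeR. In DESeq2 their FDR was 0.014 and 0.0058, and over all alternatives it reached 0.626 and 0.775. The third cytosolic counterpart, *HSPA8*, did not share this. Its means were 700 CPM in HS and 469 in TN, a smaller relative difference than that of *HSPD1* (237 and 111). *HSPA9* to *HSPA8*, the constitutive cytosolic Hsp70, differed little between HS (0.217 to 0.261) and TN (0.196 to 0.248), with an exact permutation p of 0.3. This ratio was higher in each PF cow, at 0.252 to 0.383, than in each TN cow, a log2 difference of 0.53 (exact permutation p = 0.1, adjusted 0.5). With any 1 cow left out, the log2 difference between HS and TN stayed between -0.79 and -0.67 for *DNAJA3* to *DNAJA1* and between -1.94 and -1.17 for *TRAP1* to *HSP90AA1*.

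**Figure D4:**
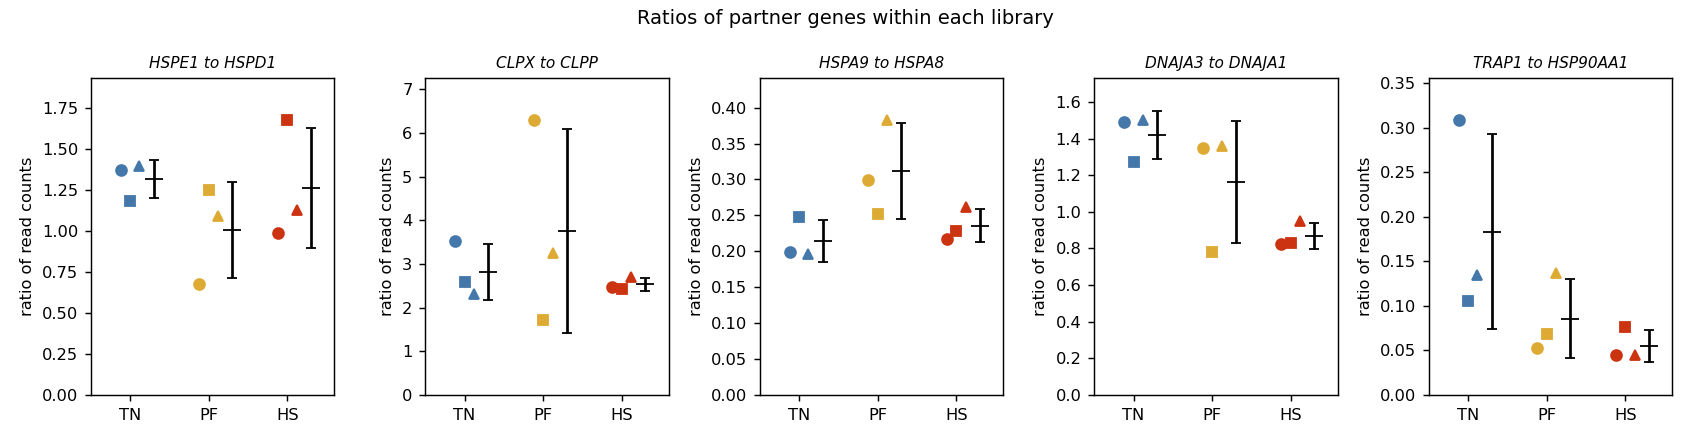
Ratio of the raw counts of 2 genes in the same library for 5 pairs of partners, on linear axes from 0, with a point for each cow and a bar at the group mean. The 3 HS cows lie below the 3 TN cows for DNAJA3 to DNAJA1 and for TRAP1 to HSP90AA1, and the 3 PF cows lie above the 3 TN cows for HSPA9 to HSPA8.

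The members differed widely in how much they varied over the 9 cows. *HSPD1* spanned 7.39-fold from the lowest to the highest cow and *HSPE1* 6.08-fold, which fell to 2.78-fold and 3.21-fold without TN replicate 1. *HTRA2* spanned 1.18-fold, with a coefficient of variation of 6.0% beside 47.0% for *HSPE1*. Over the 9 cows, the log2 CPM of 5 members followed that of *HSPD1*, with Pearson r of 0.89 for *HSPE1*, 0.94 for *HSPA9*, 0.94 for *DNAJA3*, 0.93 for *GRPEL1* and 0.91 for *LONP1*. The exact permutation p of these r, adjusted over the 9 relations tested, was 0.00588 to 0.00806. Spearman's rho was 0.67 to 0.85 for the same genes, with adjusted permutation p of 0.0547 to 0.0883, and so missed 0.05. This depended on the setting. The adjusted permutation p of these rho was 0.0385 to 0.0467 with the mitochondrial genome left out and 0.0278 to 0.0486 on deviations from the group means. It was 0.493 to 0.715 without TN replicate 1 and HS replicate 3. *CLPP* and *CLPX* had r of 0.68 and 0.67, *TRAP1* -0.45 and *HTRA2* -0.31, none of which passed the adjustment, with rho of 0.55, 0.28, -0.20 and -0.77. TN replicate 1, the lowest cow for *HSPD1*, was also the lowest in 6 of the 8 hepatocyte markers. How many of all genes follow *HSPD1* as closely was not tested, so these r do not set the members apart from other genes.

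These relations were weaker without the 2 cows that stood apart. These cows were picked by their *HSPD1* values, and leaving out the ends of a range tends in itself to lower r. Without TN replicate 1 and HS replicate 3, the cows farthest from the median of *HSPD1*, r was 0.44 for *HSPE1*, 0.63 for *HSPA9*, 0.50 for *DNAJA3*, 0.25 for *GRPEL1* and 0.42 for *LONP1*, and no r passed the adjustment. The rho of *HTRA2* was then -0.96 (exact permutation, adjusted p = 0.0250), higher *HTRA2* going with lower *HSPD1*, but 0.050 within the groups. Taken within the groups, as deviations from the group means, r was 0.85 for *HSPE1*, 0.96 for *HSPA9*, 0.94 for *DNAJA3* and 0.91 for *LONP1*, each with an exact permutation p of 0.0250 after adjustment, although the 2 cows are included there. *HSPD1* and *HSPE1* are neighbours in ARS-UCD2.0 (RefSeq) and are known in mammals to be read in opposite directions from a shared promoter, and the r of *HSPE1* was the lowest of the 5 and its rho the highest.

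The other 38 genes of mitochondrial protein quality control tested here, namely stress regulators, membrane and processing proteases, assembly factors and import components, had a smaller median than the members. In HS vs. TN 29 of 38 had a higher mean in HS, with a median log2 fold change of 0.18. None was called in edgeR (background 0.0892%) and 1, *ATF5*, was called in DESeq2 (background 1.32%, FDR 0.091, up to 0.881 under the other alternatives), and 7 passed an unadjusted p under 0.05 in edgeR, 5 higher and 2 lower (background 4.13% higher and 5.23% lower). Groups did not overlap for 10 of them, 7 higher and 3 lower in HS (background 8.37% and 7.7%). The median was 0.33 over the 10 import genes and 0.30 over the 12 other folding and assembly factors, of which 9 and 11 had a higher mean in HS. It was 0.12 over the 5 membrane proteases, -0.088 over the 6 processing proteases and -0.24 over the 5 transcriptional regulators. In the same order of the 5 roles, the medians were 0.17, 0.048, 0.0036, -0.23 and 0.0020 without TN replicate 1. They were 0.28, 0.15, -0.056, -0.29 and -0.12 without HS replicate 3 and 0.094, -0.040, -0.18, -0.39 and 0.11 without both. The sign held for the import genes. That of the processing proteases held in these settings, but their median was 0.047 without HS replicate 1 and 0.010 without TN replicate 3. The number at an unadjusted p under 0.05 was 1 without HS replicate 3 and 4 with HS replicate 2, TN replicate 1 or TN replicate 3 left out. Of those without TN replicate 1, 1 was higher and 3 lower in HS, and without both cows 0 were higher and 4 lower. Without TN replicate 1 and HS replicate 3 together the median over all 38 was -0.087.

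*ATF5*, the transcription factor known to regulate the mitochondrial unfolded protein response in mammals, had a lower mean in HS, unlike most of the chaperones. It was at 267, 195 and 203 CPM in HS, 328, 392 and 353 in PF and 367, 347 and 514 in TN. Each HS cow was below each cow of both other groups, and the log2 fold changes were -0.90 (SE 0.31, FDR 0.462) in HS vs. TN and -0.69 (SE 0.26, FDR 0.795) in HS vs. PF in edgeR. *NUP62*, which overlaps *ATF5* in ARS-UCD2.0, was at 26.1 to 34.9 CPM in HS, 34.0 to 62.3 in PF and 86.1 to 174 in TN, and its part in the *ATF5* counts was not tested. The other genes with the smallest p in HS vs. TN were *CEBPB*, a stress-responsive transcription factor, at 0.60 (SE 0.21, FDR 0.458), and *DNLZ*, a zinc-finger cochaperone of HSPA9, at 0.69 (SE 0.24, FDR 0.465) in edgeR. *DNLZ* was at 31.1, 48.2 and 35.4 CPM in HS and at 18, 26.6 and 25.9 in TN, with no overlap.

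In HS vs. PF the median over the 38 genes was 0.0062, none was called with either tool, and 2 passed an unadjusted p under 0.05 in edgeR (background 5.32%, so that the share was near that of all genes), which became 0 without HS replicate 2 and 1 without PF replicate 2. These were *ATF5* and *PHB*, the inner membrane scaffold prohibitin, at 0.60 (SE 0.27, FDR 0.927) in edgeR, followed by *DDIT3* (CHOP), a factor of the stress response, at 0.51 (SE 0.24, FDR 0.948). In PF vs. TN the median was 0.33, none was called with either tool, and 3 passed an unadjusted p under 0.05 in edgeR (background 6.88%, again a similar share), which became 1 without PF replicate 2, 1 without TN replicate 1 and 5 without TN replicate 2. The import receptor *TOMM20* was at 91.9, 82.3 and 79.1 CPM in PF and at 32.7, 65.0 and 55.9 in TN, with no overlap, and differed by 0.72 (SE 0.30, FDR 0.708) on the log2 scale in edgeR. The inner membrane peptidase *IMMP1L* and *DDIT3* were lower in each PF cow than in each TN cow (background 6.36%), with log2 fold changes of -0.72 (SE 0.24, FDR 0.697) and -0.73 (SE 0.27, FDR 0.708) in edgeR.

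**Figure D5:**
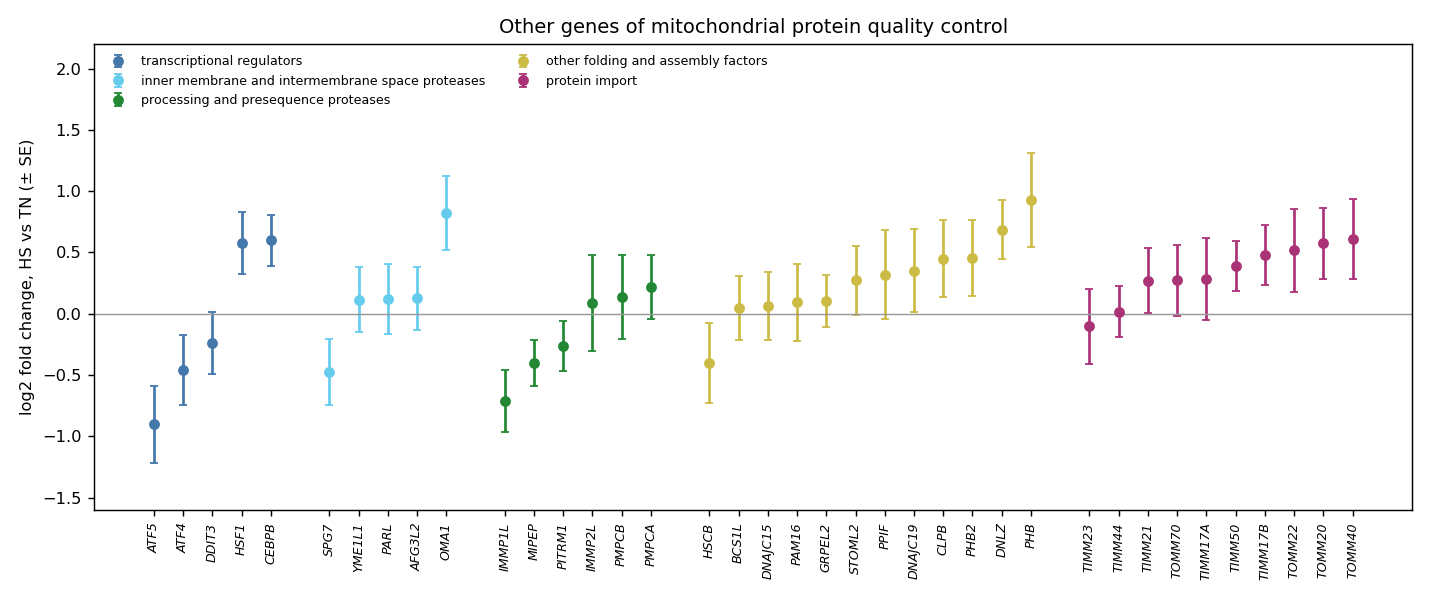
Log2 fold change in HS vs. TN of the 38 other genes of mitochondrial protein quality control, by role. Each gene has a point from the edgeR fit, with bars of 1 SE. The median was 0.33 over the import genes and -0.24 over the transcriptional regulators, which without TN replicate 1 were 0.17 and 0.0020.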

How the data were processed

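Liver polyA RNA of 9 cows was sequenced. The authors filtered reads with fastp 0.23.2, aligned them with STAR 2.7.9a (up to 3 mismatches) to ARS-UCD1.2 and counted them with featureCounts 2.0.3, and they deposited raw counts per gene, which were used as they stood. The annotation release and the strand and multi-mapping settings are not given in the sources used here, so genes that overlap a neighbour (*TRAP1*, *LONP1*, *CLPP*, *HTRA2*, *HSPA9*, *DNAJA3*, *ATF5*, *IMMP1L* and *DDIT3* among them) or have pseudogenes (the chaperones in general) are uncertain to that extent. Samples were grouped by their labels, which name separate cows.

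Each pair of groups was fitted across all genes in edgeR 4.0.16 (R 4.3.3, TMM, filterByExpr, quasi-likelihood F test), with Benjamini-Hochberg adjustment. CPM used TMM on the 9 libraries, and log2 CPM an offset of 0.5. Ratios and correlations were tested by exact two-sided permutation. The alternatives were DESeq2 1.42.0, RLE size factors, the mitochondrial genome left out, no filter or at least 10 counts in every sample, 1 fit of all 9 libraries, a replicate block, an FDR under 0.05, and each cow left out. The fits were tested on data simulated for HS vs. TN, with 200 genes changed. At a 2-fold change edgeR called 7.0% of them and DESeq2 28.5%, and at a 4-fold change 77.0% and 83.0%. Most of the simulated 2-fold changes were thus missed with either tool. The changed genes were drawn at random from all 14582 genes tested, and the share for genes with counts like those of the members was not tested. The members and lists were chosen with earlier results of these data known. Named genes are all members, their counterparts in the ratios and, of the 38 other genes, the 3 with the smallest p in each comparison and any called. RefSeq of ARS-UCD2.0, in which all 10 members matched by symbol, served only to name neighbours.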

Additional observations from a re-analysis of the deposited data

How the results depend on the processing

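Each group held 3 cows, and each member had at least 354 counts in each library. No member was called in any comparison under any alternative run, and of 400 alternative fold changes of members, 376 kept their sign. The number of members at an unadjusted p under 0.05 in HS vs. TN was 5 with DESeq2, 5 with the replicate number as a block, 0 without TN replicate 1 and HS replicate 3 together (median 0.042) and 0 to 4 (median 0.27 to 0.69) with 1 cow left out. In HS vs. PF it was 1 with DESeq2, 1 with no filter on low counts, 1 with the replicate block and 0 to 2 with 1 cow left out, and in PF vs. TN 0 to 3 with 1 cow left out. Of the 38 other genes, DESeq2 called 1 in HS vs. TN. Those at an unadjusted p under 0.05 numbered 1 to 7 in HS vs. TN with 1 cow left out (median 0.047 to 0.34) and 4 without the 2 cows (median -0.087). In HS vs. PF they numbered 1 with RLE size factors, 1 with all 9 libraries, 1 with the mitochondrial genome left out, 1 with the replicate block and 0 to 2 with 1 cow left out, and in PF vs. TN 7 with all 9 libraries and 1 to 5 with 1 cow left out. The cause of these differences was not tested.

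Some signs turned. Without TN replicate 1 and HS replicate 3, HS vs. TN gave -0.018 for *LONP1*, -0.083 for *CLPP* and -0.088 for *CLPX*, which with 1 cow left out were at 0.17 to 0.54, 0.026 to 0.46 and 0.034 to 0.36. In HS vs. PF, *DNAJA3* was at 0.0027 with all 9 libraries, 0.0069 with no filter and -0.31 to 0.16 with 1 cow left out. *LONP1* was at -0.0010 with DESeq2, -0.0037 with RLE, -0.0011 with the mitochondrial genome left out, -0.0063 with the replicate block and -0.18 to 0.12 with 1 cow left out. With 1 cow left out the ranges were 0.086 to 0.54 for *HSPD1*, 0.021 to 0.55 for *GRPEL1*, 0.014 to 0.61 for *CLPP*, -0.37 to 0.11 for *HSPA9*, -0.063 to 0.32 for *TRAP1* and -0.21 to 0.15 for *CLPX* in HS vs. PF, and -0.0056 to 0.67 for *HSPE1* and -0.33 to 0.27 for *CLPP* in PF vs. TN. The log2 difference of *HSPE1* to *HSPD1* in HS vs. TN was then -0.32 to 0.065, and that of *CLPX* to *CLPP* was -0.26 to 0.050 in HS vs. TN, -0.84 to 0.10 in HS vs. PF and -0.23 to 0.71 in PF vs. TN. Without the 2 cows farthest from the median, r with *HSPD1* lost its threshold for *HSPE1* (0.44), *HSPA9* (0.63), *DNAJA3* (0.50), *GRPEL1* (0.25) and *LONP1* (0.42). As deviations from group means it lost it for *GRPEL1* (0.87), passed it for *CLPP* (0.74) and was 0.29 for *HTRA2*.

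The labels do not state whether cows with the same replicate number were paired, and the correlations of so few cows cannot decide it. The deviations of cows with the same number correlated at -0.22 to 0.24 over genes, and 4 of 9 cows correlated best with a cow of their own number. The replicate block changed no call of a member.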
